A study of Mus musculus with 2 samples.

Results

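Fibroblasts that expressed Cxcl9 or Cxcl10 were 3600 of the 35627 cells kept from the mouse RPE, choroid and sclera. They were chosen by measured values. A fibroblast was a cell with at least 5 UMIs (unique molecular identifiers, each standing for 1 captured RNA molecule) and at least 2000 CPM (UMIs per 1000000 UMIs of the cell) of Dcn, which encodes the collagen-binding proteoglycan decorin, and under 10 UMIs of the RPE gene Rpe65. Of 19821 such cells, 19804 held under 2 UMIs of Kera, the keratocan gene of the cornea and sclera, and are called Kera-low fibroblasts. Among these, 3600 held at least 3 UMIs of Cxcl9 and Cxcl10 together and 16204 held fewer and served for comparison. The control library was pooled from 10 eyes of 5 male C57BL/6J mice given a subretinal injection of 1 µl of PBS, and the Dox library from 10 eyes of 5 such mice given 1 µl of the DNA-damaging drug doxorubicin at 100 ng/µl. The libraries held 117731270 UMIs in 20381 cells in control and 103997248 UMIs in 15649 cells in Dox. The mice were 3 months old, and tissue was taken 7 days after injection, dissociated with papain and depleted of dead cells. With 1 library per condition there was no test between conditions, every interval is a 95% interval of counting error only, and treatment and library cannot be told apart.

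CXCL9 and CXCL10 are chemokines that attract activated T cells and natural killer cells through the receptor CXCR3. Interferons switch on both genes, and NF-κB, a transcription factor of inflammatory signalling, also acts on Cxcl10. Fibroblasts build the collagen-rich stroma of the choroid and sclera, and fibroblasts of many tissues can make chemokines after they sense interferon or tumor necrosis factor.

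Cxcl10 lies at chr5:92346638-92348889 and Cxcl9 at chr5:92321347-92328079 of mm10, both on the minus strand. The RefSeq promoter windows of both genes and of Ifit1, Isg15 and Ifi47, interferon-stimulated genes that were high in the same cells, are shown so that their interferon motifs can be compared. Each window runs from 250 bases before to 50 bases after the transcription start (GRCm38.p6). Capitals mark matches on either strand to GAAANNGAA, the core of the interferon-stimulated response element, to TTCNNNGAA, the gamma-activated site, or to the κB consensus.
Cxcl10 (chr5:92348840-92349139, minus strand): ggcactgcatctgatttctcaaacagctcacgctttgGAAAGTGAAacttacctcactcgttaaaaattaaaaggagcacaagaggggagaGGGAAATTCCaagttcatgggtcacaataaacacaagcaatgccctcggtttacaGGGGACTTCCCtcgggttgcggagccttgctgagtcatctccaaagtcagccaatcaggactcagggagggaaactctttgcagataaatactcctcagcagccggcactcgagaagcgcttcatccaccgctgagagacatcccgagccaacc
Cxcl9 (chr5:92328030-92328329, minus strand): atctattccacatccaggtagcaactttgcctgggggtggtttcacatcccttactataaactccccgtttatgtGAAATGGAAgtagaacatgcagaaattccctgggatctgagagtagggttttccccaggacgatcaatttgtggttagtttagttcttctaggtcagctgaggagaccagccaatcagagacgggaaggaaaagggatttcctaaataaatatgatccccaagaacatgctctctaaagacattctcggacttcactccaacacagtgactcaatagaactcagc
Ifit1 (chr19:34640639-34640938, plus strand): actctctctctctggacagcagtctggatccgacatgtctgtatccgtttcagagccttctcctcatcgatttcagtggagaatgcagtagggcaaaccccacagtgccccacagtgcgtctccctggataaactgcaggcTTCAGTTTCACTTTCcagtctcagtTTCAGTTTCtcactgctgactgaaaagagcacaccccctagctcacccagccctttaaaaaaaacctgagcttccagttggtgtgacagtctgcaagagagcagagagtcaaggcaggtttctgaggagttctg
Isg15 (chr4:156200769-156201068, minus strand): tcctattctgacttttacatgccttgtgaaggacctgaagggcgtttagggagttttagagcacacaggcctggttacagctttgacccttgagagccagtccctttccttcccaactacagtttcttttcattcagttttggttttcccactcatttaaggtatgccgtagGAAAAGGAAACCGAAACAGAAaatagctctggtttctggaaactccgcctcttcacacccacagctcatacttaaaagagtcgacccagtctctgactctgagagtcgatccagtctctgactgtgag
Ifi47 (chr11:49076337-49076636, plus strand): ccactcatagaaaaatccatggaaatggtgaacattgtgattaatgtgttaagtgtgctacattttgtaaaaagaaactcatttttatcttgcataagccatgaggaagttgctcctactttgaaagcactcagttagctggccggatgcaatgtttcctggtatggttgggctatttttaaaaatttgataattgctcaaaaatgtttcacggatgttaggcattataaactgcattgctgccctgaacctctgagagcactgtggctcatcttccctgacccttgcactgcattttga
GAAANNGAA was found 1 time in the Cxcl10 window, starting at position -213 from the transcription start, and 1 time in the Cxcl9 window, at position -175. The Ifit1 window held 3 matches on the reverse strand, of which the first pair overlap, and the Isg15 window held 3 that overlap in a row. The Ifi47 window held no match to any of the 3 motifs. The κB consensus was found only in the Cxcl10 window among these 5, at position -159 and in overlapping matches from position -104. Of all 32851 mouse windows, 8.56% held GAAANNGAA, 8.30% held TTCNNNGAA and 8.46% held the κB consensus. Counted by gene, with any window of a gene, the shares of 27025 genes were 9.76%, 9.55% and 9.55%. Of the 20 genes that stood highest in the expressing fibroblasts, 15 had a window, and 3 of these held GAAANNGAA (Ifit1, Ifit3 and Isg15), 1 held TTCNNNGAA (Irf1) and 5 held the κB consensus (Ccrl2, Cxcl2, Irf1, Tifa and Tnfaip3). Of the 12 lowest genes, 11 had a window, of which 2 held the κB consensus (Chil1 and Tnmd) and none held either interferon motif. A match describes the letters of a window and not a bound site.

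At the 3-UMI threshold, fibroblasts with Cxcl9 or Cxcl10 were a similar share of the Kera-low fibroblasts in both conditions. The share was 17.8% (17.1% to 18.5%) in control, or 2034 of 11450 cells, and 18.7% (17.9% to 19.6%) in Dox, or 1566 of 8354 cells. The intervals overlap. At 10 chemokine UMIs or more the shares were 9.68% (9.14% to 10.2%) for control and 11.2% (10.5% to 11.9%) for Dox, and those intervals do not overlap. With each cell thinned to 2000 UMIs, the share that still held 3 chemokine UMIs was 12.3% (11.7% to 12.9%) for control and 13.2% (12.5% to 14.0%) for Dox, after 565 and 393 shallower cells were left out. The expressing cells had a median of 4999.5 UMIs in control against 4952.5 in the other fibroblasts, and of 5618.5 against 5532 in Dox. Depth was therefore nearly the same in expressing and other fibroblasts of a library. Between conditions it differed, with a median over Kera-low fibroblasts of 4959.5 UMIs in control and 5550 in Dox. The shares at 10 chemokine UMIs or more were not taken at equal depth. At 500 CPM or more of the chemokines, 2018 of 11450 cells in control and 1527 of 8354 in Dox were chosen. Their median mitochondrial share was 1.31% in control and 1.20% in Dox. The libraries had 441 cell barcodes in common, 4 of them among the expressing cells.

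Within the expressing cells the chemokine RNA was unevenly spread and was nearly all Cxcl10. A cell held a median of 11 chemokine UMIs in control (quartiles 5 and 21, highest 189) and of 13 in Dox (quartiles 6 and 27, highest 112). The 203 control cells with the most held 34.1% of the chemokine UMIs, and the 157 Dox cells with the most held 31.2%. Cxcl9 was found in 155 of the expressing control cells (7.62%) and 102 of the Dox cells (6.51%), and without Cxcl10 in 12 and 7 cells. A cell with 1 or 2 Cxcl9 UMIs needed Cxcl10 to be chosen, and 88 of the control and 64 of the Dox cells with Cxcl9 held at least 3 UMIs of it. Cells with Cxcl9 were thus a minority. Summed over the expressing cells, Cxcl10 was at 2716 against 26.2 CPM in the other fibroblasts in control and at 3005 against 23.4 CPM in Dox. Cxcl9 was at 54.6 against 0.792 CPM in control and 62.2 against 0.571 CPM in Dox. These differences are set by the choice of cells.

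The expressing fibroblasts held most of the Cxcl9 and Cxcl10 RNA of each library while being 10.1% of its kept cells in control and 10.1% in Dox. They held 67.0% of the Cxcl10 UMIs in control and 68.4% in Dox, and 59.7% and 76.0% of the Cxcl9 UMIs. The cells were chosen for these UMIs, so that the shares describe the choice. Over all Kera-low fibroblasts, a level that does not depend on the 3-UMI threshold, Cxcl10 was at 534 CPM for control and 604 CPM in Dox (log2 ratio 0.18, 0.16 to 0.20). Cxcl9 was at 10.96 and 12.6 CPM (log2 ratio 0.20, 0.04 to 0.36).

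Cells with under 5 Dcn UMIs were classed by other genes to place the fibroblasts among them. C1q cells, with at least 5 UMIs of the macrophage complement genes C1qa, C1qb and C1qc, held at least 3 chemokine UMIs in 22.8% (18.5% to 27.5%) of 351 cells in control and 14.9% (9.94% to 21.0%) of 175 cells in Dox. They had Cxcl10 at 571 CPM for control and 499 CPM for Dox, while Cxcl9 was at 2.41 CPM in control and had no UMI in Dox. The share was 4.57% in control and 1.75% in Dox among cells with the melanocyte gene Pmel, 3.14% in control and 2.02% in Dox among cells with smooth muscle genes and 2.84% in control and 4.48% in Dox among cells with endothelial genes. It was 2.44% in control and 1.95% in Dox among cells with Cd3 genes or Nkg7, which mark T cells and natural killer cells. C1q cells were thus nearest to the Kera-low fibroblasts among these classes, above their 17.8% in control and below their 18.7% in Dox. Thinned to 2000 UMIs, C1q cells stood at 14.7% (10.6% to 19.5%) in control and 14.8% (8.98% to 22.3%) in Dox. The fibroblasts were then at 12.3% and 13.2%, within those intervals.

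Cells with at least 10 UMIs of Rpe65 and under 5 of Dcn are called Rpe65 cells. Whether these cells make the chemokines was not tested. They gave a share of 0.803% (0.368% to 1.52%) in control and 0.516% (0.208% to 1.06%) in Dox. Their median depths were 15508 and 18939 UMIs. At least 1 chemokine UMI was found in 27.4% in control and 27.7% in Dox among Kera-low fibroblasts and in 6.69% in control and 4.27% in Dox among Rpe65 cells. Thinned to 2000 UMIs, the same shares were 21.5% in control and 22.2% in Dox among fibroblasts and 1.56% in control and 1.22% in Dox among Rpe65 cells. The fibroblasts stood above the Rpe65 cells at equal depth in both libraries.

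**Figure D1:**
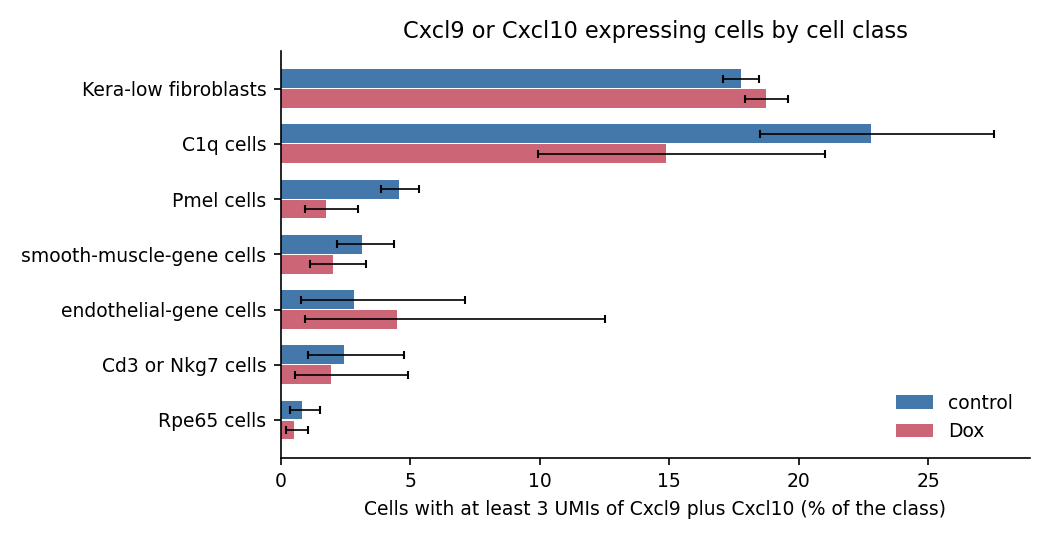
Share of cells with at least 3 UMIs of Cxcl9 and Cxcl10 together (x axis, percent of the class) in 7 classes of cells (y axis) of the control (blue) and Dox (red) libraries. Bars show 1 library each and lines the 95% Clopper-Pearson interval; fibroblasts, at 17.8% and 18.7%, and C1q cells stood above the Rpe65 cells, at 0.803% and 0.516%.

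The expressing cells carried the genes of fibroblasts. Lum, which encodes the collagen-organizing proteoglycan lumican, was at 2339 against 1915 CPM in control and 2369 against 1820.5 CPM in Dox. Col1a1, a chain of type I collagen, was at 541 against 638 CPM in control and 555 against 669.9 CPM in Dox, and Pdgfra, a growth factor receptor of fibroblasts, at 231 against 197 CPM in control and 205 against 179 CPM in Dox. Ptprc, the pan-leukocyte gene CD45, was at 7.88 against 7.07 CPM in control and 4.20 against 3.62 CPM in Dox. Other leukocyte genes were read at higher levels, with the macrophage gene Lyz2 at 181 against 142 CPM in control and 99.1 against 57.4 CPM in Dox and Cd74, the invariant chain of MHC class II, at 497 against 299.5 CPM in control and 103 against 132 CPM in Dox. The fibroblast genes were thus high, beside RNA of leukocytes that is described further on.

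Against the other fibroblasts of the same library, the expressing cells had more RNA of other chemokines, of interferon-stimulated genes and of NF-κB targets, and less of genes that mark other kinds of fibroblast. Of 2901 genes with at least 50 CPM in a group and 50 UMIs over both groups in each library, 8 were at least 2-fold higher in both libraries (0.276%) and 8 at least 2-fold lower in both (0.276%). A limit of 1.5-fold, added after the data were seen because few genes passed, gave 37 higher (1.28%) and 20 lower genes (0.689%). The median log2 ratio over all genes was -0.03 in control and -0.04 in Dox. Of all genes compared, 25.5% were above 0 on the log2 scale in both libraries and 53.1% below 0 in both. Cxcl9, Cxcl10, Dcn, Kera and Rpe65 are left out of these counts. A gene could reach 50 CPM in the group where it was high alone. In at least 1 library, 16 of the 37 higher genes were under 50 CPM in the other fibroblasts and 9 of the 20 lower ones under it in the expressing cells, so that these genes had to differ to be compared, and the counts and medians over the genes compared are descriptions. The cells were chosen on Cxcl9 and Cxcl10 measured in the same cells, so that the ratios describe them and test nothing.

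Other chemokines were higher beside Cxcl10. Of 10 chemokine and cytokine genes compared, out of 32 in the files, 10 were above 0 on the log2 scale in both libraries. At least 2-fold higher were 4 and at least 1.5-fold higher 7, with a median log2 ratio of 0.82 in control and 0.87 in Dox. The shares of all genes were 25.5% above 0, 0.276% at 2-fold and 1.28% at 1.5-fold. Ccl4, counted at both limits, was under 50 CPM in the other fibroblasts and was compared through the expressing cells. The other 6 genes at 1.5-fold were not under it. Ccl11, which encodes the eosinophil attractant eotaxin, was at 342 against 111 CPM in control (log2 ratio 1.62, 1.56 to 1.68) and 281 against 93.1 CPM in Dox (1.60, 1.52 to 1.67). Ccl2, a main attractant of monocytes, was at 869 against 371 CPM in control (log2 ratio 1.23, 1.19 to 1.26) and 812 against 304 CPM in Dox (1.42, 1.38 to 1.46). Both were higher in the expressing cells of each library by more than counting error.

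Ccl7, another monocyte attractant, was at 552 against 283 CPM in control and 462 against 278 CPM in Dox. Cxcl1, which attracts neutrophils, was at 3412 against 2189 CPM in control and 3598 against 2047 CPM in Dox, and Cxcl2, which does the same, at 341 against 159.5 CPM in control and 271 against 113 CPM in Dox. Il6, a cytokine of the acute phase, was at 101 against 63.3 CPM in control and 116 against 61.0 CPM in Dox. Cxcl12, which binds CXCR4, differed less, with log2 ratios of 0.42 and 0.44.

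Ccl4, a chemokine best known from macrophages and lymphocytes, was at 111 against 36.9 CPM in control and 63.2 against 16.0 CPM in Dox, but a single cell held 21.0% of its UMIs among the expressing cells of control and 24.2% in Dox. In C1q cells Ccl4 was at 8390.5 CPM for control and 5469 CPM for Dox. Without the cells that held at least 2 UMIs of Tyrobp, Lyz2, Cd74 or C1q genes, an alternative added after the data were seen, Ccl4 was at 16.1 against 15.9 CPM in control and 6.97 against 7.62 CPM in Dox. Without those cells the groups were thus close in Ccl4. Cxcl2 in the same cells was at 252 against 124 CPM and 226 against 105 CPM.

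**Figure D2:**
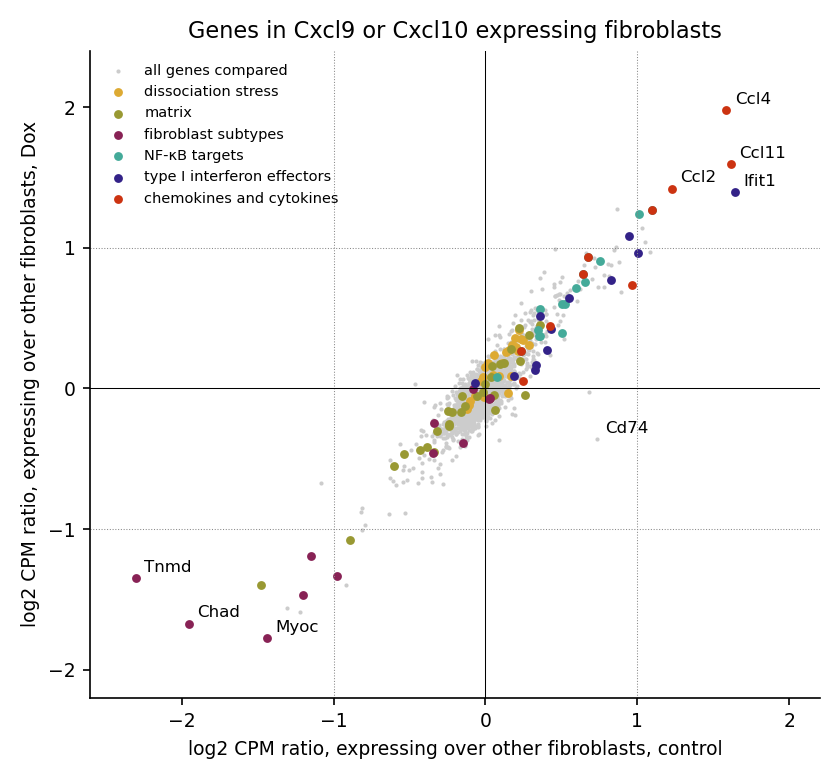
Log2 ratio of CPM in Cxcl9 or Cxcl10 expressing over other fibroblasts in control (x axis) and Dox (y axis), with each point 1 gene, all genes compared in grey, 6 gene lists in color and dotted lines at 2-fold. Chemokines and interferon effectors lie at the upper right, with Ccl11 at 1.62 and 1.60, and fibroblast subtype genes at the lower left, with Myoc at -1.44 and -1.77.

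Some effectors of type I interferon were higher, most of them by less than 2-fold. Of 12 compared, out of 52 in the files, 11 were above 0 in both libraries, 1 by at least 2-fold and 4 by at least 1.5-fold. The medians were 0.42 in control and 0.47 in Dox. The shares of all genes were 25.5% above 0, 0.276% at 2-fold and 1.28% at 1.5-fold. Of the 4 genes, 1 was under 50 CPM in the other fibroblasts of a library and was compared through the expressing cells. Ifit1, which binds foreign RNA that lacks a mature cap, was at 253 against 81.1 CPM in control (log2 ratio 1.64, 1.57 to 1.71) and 284 against 108 CPM in Dox (1.39, 1.32 to 1.46). Isg15, a ubiquitin-like modifier, was at 527 against 263 CPM in control and 571 against 293 CPM in Dox, and Ifit3, a partner of Ifit1, at 161 against 83.5 CPM in control and 192 against 90.7 CPM in Dox. Ifitm3, which blocks viral entry, differed less, at 2153 against 1596 CPM in control and 2202 against 1645 CPM in Dox. Ifi27 was the exception, with log2 ratios of -0.07 and 0.04.

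Targets of interferon gamma were few among the genes compared, with 6 of the 32 in the files. Of these, 6 were above 0 in both libraries and 3 at least 1.5-fold higher, with medians of 0.57 in control and 0.63 in Dox. Among all genes, 25.5% were above 0 in both libraries and 1.28% at least 1.5-fold higher. Of the 3 genes at 1.5-fold, Ifi47 and Gbp2 reached the minimum in the expressing cells alone. Ifi47, an immunity-related GTPase, was at 71.0 against 33.6 CPM in control and 68.3 against 34.9 CPM in Dox. Gbp2, a guanylate-binding protein that attacks the vacuoles of microbes, was at 84.6 against 45.7 CPM in control and 74.3 against 46.1 CPM in Dox, and Irgm1, which regulates the immunity-related GTPases, had log2 ratios of 0.72 and 0.86.

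Several genes of the same list lay under the 50-CPM minimum. Gbp5, a relative of Gbp2, was at 20.7 against 6.74 CPM in control and 25.2 against 8.37 CPM in Dox, the GTPase gene Tgtp2 at 33.8 against 15.2 CPM in control and 36.4 against 14.5 CPM in Dox and Iigp1, an immunity-related GTPase, at 19.4 against 7.75 CPM in control and 13.9 against 6.11 CPM in Dox. With genes taken from 20 UMIs on and no CPM minimum, 11 of 27 genes of this list, 9 of 43 of the type I list, 12 of 28 of the chemokine list and 7 of 26 NF-κB targets were at least 1.5-fold higher in both libraries. Over all genes the count was then 234 of 14250 (1.64%).

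Genes of interferon sensing and signalling were closer to level. Of 9 compared, 9 were above 0 in both libraries and 2, Irf1 and Irf7, at least 1.5-fold higher, with medians of 0.14 in control and 0.21 in Dox. Among all genes, 25.5% were above 0 in both libraries and 1.28% at least 1.5-fold higher. Irf7 reached 50 CPM in the expressing cells alone. Irf1, a transcription factor that acts on chemokine and antigen presentation genes, was at 1975 against 1087 CPM in control (log2 ratio 0.86, 0.84 to 0.88) and 2048 against 1021 CPM in Dox (1.004, 0.98 to 1.03). Irf7, which sustains type I interferon production, was at 60.1 against 37.0 CPM in control and 71.1 against 41.4 CPM in Dox. The receptor chain genes Ifngr1 and Ifnar2 were at 85.4 CPM for control and 80.5 CPM for Dox and at 153 CPM for control and 162 CPM for Dox in the expressing cells, beside 77.6 CPM for control and 78.5 CPM for Dox and 141 CPM for control and 140.1 CPM for Dox in the other fibroblasts. The receptors thus differed little.

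Genes of antigen presentation by MHC class I differed by less than the chemokines. Of 14 compared, 12 were above 0 in both libraries and 1 at least 1.5-fold higher, with medians of 0.29 in control and 0.22 in Dox. Among all genes, 25.5% were above 0 in both libraries and 1.28% at least 1.5-fold higher. The gene at 1.5-fold was H2-Q4, a class Ib molecule, at 239.8 against 156 CPM in control and 235 against 144 CPM in Dox. B2m, the light chain of class I, was at 707 against 572 CPM in control and 652 against 522 CPM in Dox. The H2 genes are close copies of each other, and how reads were shared between them is uncertain.

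Several NF-κB targets were higher. Of 28 listed, 16 were compared. Of these, 16 were above 0 in both libraries, 2 by at least 2-fold and 7 by at least 1.5-fold. The medians were 0.51 in control and 0.60 in Dox, and 3 of those at 1.5-fold were under 50 CPM in the other fibroblasts of a library. The shares of all genes were 25.5% above 0, 0.276% at 2-fold and 1.28% at 1.5-fold. The list also holds Cxcl1, Cxcl2 and Il6. Tnfaip3, the feedback inhibitor A20, was at 83.4 against 41.4 CPM in control and 82.6 against 35.0 CPM in Dox. Nfkbia, which holds NF-κB in the cytoplasm, was at 2070.0 against 1459 CPM in control and 2135 against 1408 CPM in Dox. Birc3, an inhibitor of cell death, had log2 ratios of 0.66 and 0.75, and the early response gene Ier3 of 0.08 and 0.08.

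Some of the highest genes lay outside these lists. Ch25h, which makes the antiviral oxysterol hydroxycholesterol, was at 127 against 61.4 CPM in control and 126 against 61.4 CPM in Dox. Ccrl2, a receptor that presents chemerin, was at 85.6 against 41.8 CPM in control and 60.1 against 27.3 CPM in Dox. Tcf21, a transcription factor of stromal fibroblasts, was at 81.8 against 44.9 CPM in control and 82.9 against 34.3 CPM in Dox. Adh1, an alcohol and retinol dehydrogenase, had log2 ratios of 0.84 and 0.99, and Spry1, an inhibitor of growth factor signalling, of 0.82 and 0.87. The signalling adaptor gene Tifa, the sphingosine phosphate receptor gene S1pr3, Plac8, the GTPase gene Gem and the interferon-stimulated gene Rtp4 complete the 20 highest genes, with log2 ratios of 0.88 and 0.90, 0.80 and 0.88, 0.81 and 0.80, 0.78 and 0.81 and 0.83 and 0.77. Of these 20, 10 were under 50 CPM in the other fibroblasts of a library, among them Tifa, Tcf21, Adh1, Spry1, S1pr3, Rtp4 and Ccrl2, and entered the order through the expressing cells.

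Some of the lower genes were markers of other fibroblasts, namely 6 of the 20 genes at least 1.5-fold lower. Of 12 subtype genes compared, 5 were at least 2-fold and 6 at least 1.5-fold lower in both libraries and none was higher by 1.5-fold. The medians were -0.66 in control and -0.83 in Dox. Among all genes, 0.276% were at least 2-fold and 0.689% at least 1.5-fold lower in both libraries. Myoc, which encodes the secreted protein myocilin, was at 654 against 1770.1 CPM in control (log2 ratio -1.44, -1.47 to -1.40) and 549.8 against 1882 CPM in Dox (-1.77, -1.82 to -1.74). Pi16, a marker of adventitial fibroblasts, was at 123 against 282 CPM in control and 112 against 309 CPM in Dox. Igfbp6, which binds insulin-like growth factor, was at 336 against 662 CPM in control and 233 against 587 CPM in Dox, and the cytochrome gene Cyp2f2 had log2 ratios of -1.15 and -1.19. Outside the list, the chitinase-like gene Chil1 had log2 ratios of -1.22 and -1.59, the retinoic acid hydroxylase gene Cyp26a1 of -0.92 and -1.40, the matrix gene Thbs4 of -1.31 and -1.56 and Lmcd1 of -0.82 and -0.88.

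The lower subtype genes counted above include a gene of cartilage, Chad, and a gene of tendon, Tnmd. Both were under 50 CPM in the expressing cells and were compared through the other fibroblasts alone. Chad, which encodes chondroadherin, was at 36.2 against 140.3 CPM in control and 48.9 against 156 CPM in Dox, and Tnmd, the tendon gene of tenomodulin, at 15.3 against 75.4 CPM in control and 25.8 against 66.0 CPM in Dox. Of the Chad UMIs of the expressing cells, a single cell held 13.8% in control and 28.7% in Dox. For Tnmd the same shares were 10.9% and 23.8%.

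Collagen and matrix genes as a group were level. Of 31 compared, none was at least 1.5-fold higher and 2 were at least 1.5-fold lower in both libraries, with medians of -0.05 in control and -0.07 in Dox. These were Fmod, the collagen-binding proteoglycan fibromodulin, at 36.1 against 101 CPM in control and 45.0 against 119 CPM in Dox, and Col12a1, a collagen of tendon and ligament, at 56.0 against 104 CPM in control and 49.8 against 105 CPM in Dox. Fmod and Col12a1 were under 50 CPM in the expressing cells of at least 1 library and were compared there through the other fibroblasts. Col1a1 had log2 ratios of -0.24 and -0.27 and Lum of 0.29 and 0.38. Dcn, which chose the cells, was at 8900.4 against 10915 CPM in control and 7788 against 10204 CPM in Dox. None of 12 proteases and inhibitors and none of 6 complement genes passed 1.5-fold in both libraries. Over all genes 1.28% were higher and 0.689% lower by 1.5-fold, so that these counts are near the background. Adamts4, a protease of aggrecan, had log2 ratios of 0.56 and 0.70.

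Levels were followed over groups of fibroblasts with rising numbers of chemokine UMIs. Irf1 was at 1058 CPM in control fibroblasts with 0 chemokine UMIs, at 1230.4 CPM with 1, 1427 CPM with 2, 1435 CPM with 3, 1664 CPM with 4 to 9, 2144 CPM with 10 to 29 and 2651 CPM with 30 or more. In Dox, Irf1 was at 993, 1159, 1419, 1421, 1713, 2046 and 2774 CPM in the same order. Irf1 thus rose with the chemokine UMIs, also below the threshold, but was nearly level between 2 and 3 UMIs in both libraries. Between cells with 0 UMIs, 8318 in control and 6043 in Dox, and cells with 30 or more, 304 and 357, Ifit1 went from 77.7 CPM to 538 CPM in control and from 101 to 545 CPM in Dox. Isg15 went from 255 CPM to 794 CPM in control and from 283 to 829 CPM in Dox. Both were highest in the cells with the most chemokine RNA, but not every step was upward. Ifit1 in control was at 215 CPM with 3 UMIs and 143 CPM with 4 to 9, and in Dox at 171 CPM with 1, 142 CPM with 2 and 131 CPM with 3.

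Across the same range Ccl2 went from 361 CPM to 1524 CPM in control and from 285 to 1275 CPM in Dox, Ccl11 from 105 CPM to 664 CPM in control and from 89.1 to 535 CPM in Dox and Cxcl1 from 2142 CPM to 4184 CPM in control and from 1977 to 4559 CPM in Dox. Ccl11 in control was lower with 3 UMIs, at 61.3 CPM, than with none. Myoc went the other way, from 1840.4 CPM to 536 CPM in control and from 1923 to 151 CPM in Dox. Ttr, an abundant RPE transcript that was also read in the fibroblasts, went from 2192 CPM to 1995 CPM in control and from 3503 to 3664 CPM in Dox. Median depth ran from 4727.5 to 5322 UMIs per cell over the control groups and from 5480 to 5750 over the Dox groups. Depth was thus close in all of them, and Ttr changed little beside the other genes.

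Just inside the threshold, the 214 control cells with 3 UMIs had Ccl2 at 450.1 CPM, Ccl11 at 61.3 CPM and Ifit1 at 215 CPM, and just outside it the 301 cells with 2 UMIs had 537, 189 and 114 CPM of these genes. In Dox the 149 cells with 3 UMIs had 383, 145 and 131 CPM, and the 219 cells with 2 UMIs 533, 124 and 142 CPM. Ccl2 was thus lower just inside the threshold than just outside it in both libraries. Ccl11 and Ifit1 did not step the same way in both.

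**Figure D3:**
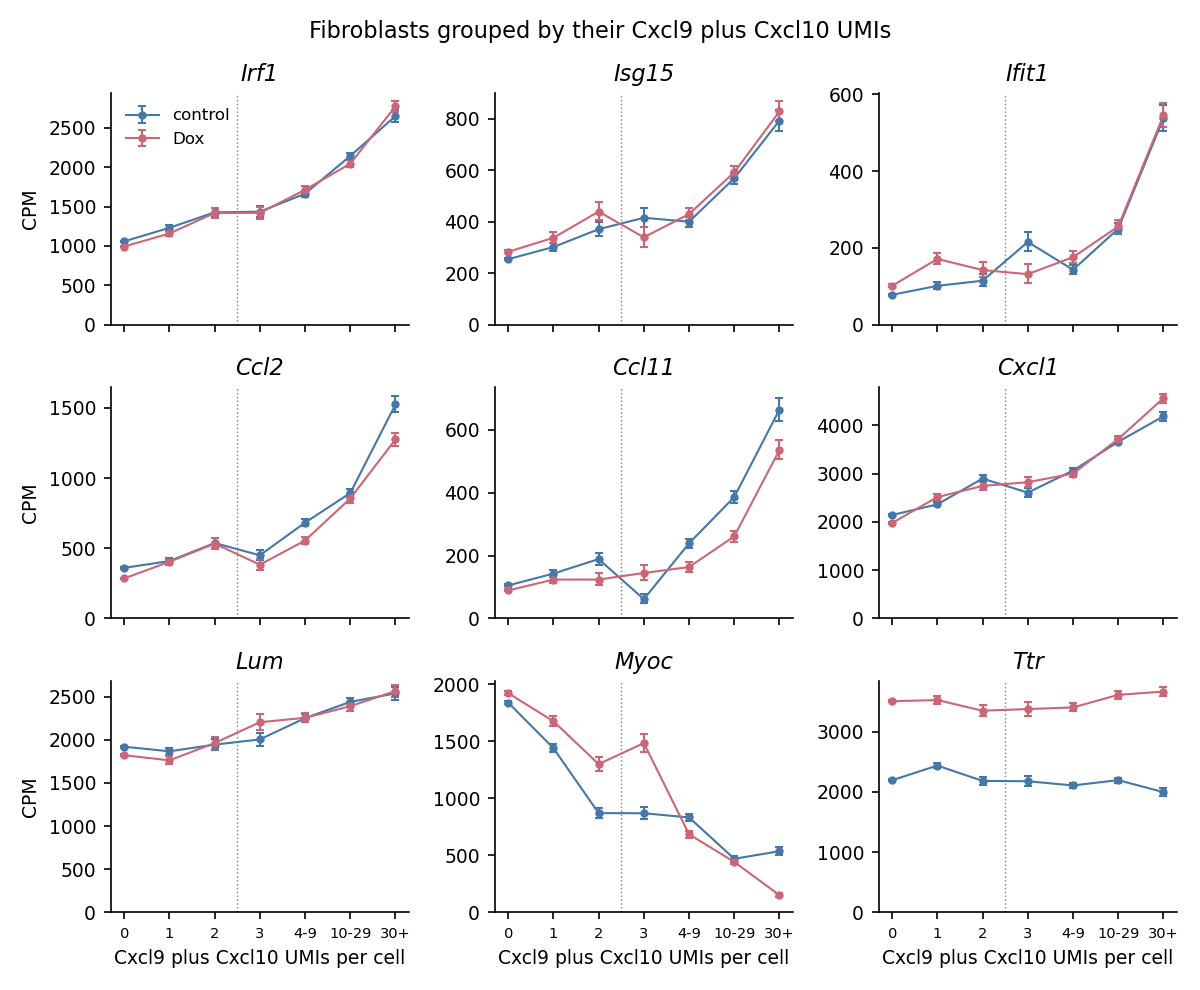
CPM (y axes, from 0) of 9 genes in Kera-low fibroblasts grouped by their Cxcl9 plus Cxcl10 UMIs (x axes), in control (blue) and Dox (red), with 95% Poisson intervals and a dotted line at the threshold of 3 UMIs. Irf1 went from 1058 CPM to 2651 CPM in control and from 993 to 2774 CPM in Dox, Myoc went from 1840.4 CPM to 536 CPM in control and from 1923 to 151 CPM in Dox, and Ttr stayed near its own level in each library.

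Expressing cells that held Cxcl9 were compared with those that held only Cxcl10. Cells with Cxcl9 also had more Cxcl10, at 4268 against 2582 CPM in control and 4682 against 2892 CPM in Dox. Their Ccl11 was at 596 against 319.6 CPM in control (log2 ratio 0.90, 0.77 to 1.03) and 734 against 251 CPM in Dox (1.55, 1.40 to 1.69). Gbp2 was at 157 against 78.3 CPM in control and 108 against 72.0 CPM in Dox, Irf1 at 2468 against 1932 CPM in control and 2808 against 1997 CPM in Dox and Tcf21 at 123 against 78.2 CPM in control and 163 against 77.5 CPM in Dox. Each was higher with Cxcl9 in both libraries. The macrophage markers summed to 449.9 against 438 CPM in control and 93.0 against 271 CPM in Dox, and Ccl4 was at 73.2 against 114 CPM in control and 9.78 against 66.8 CPM in Dox. Macrophage RNA was thus lower in the Dox cells with Cxcl9 and nearly level in control, and its part in the split was not tested. The log2 ratio of the summed type I interferon effectors was 0.34 in control and 0.23 in Dox, and that of the summed NF-κB targets 0.06 in control and 0.25 in Dox.

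Other genes did not go the same way in both libraries. Ccl7 was at 518 against 555 CPM in control and 848 against 437 CPM in Dox, and Il6 at 80.6 against 103 CPM in control and 183 against 112 CPM in Dox. Myoc was lower with Cxcl9 in both libraries but by unlike amounts, at 603 against 658 CPM in control and 166 against 576 CPM in Dox. The cells with Cxcl9 were few, 155 and 102, and the difference between the libraries was not tested.

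**Figure D4:**
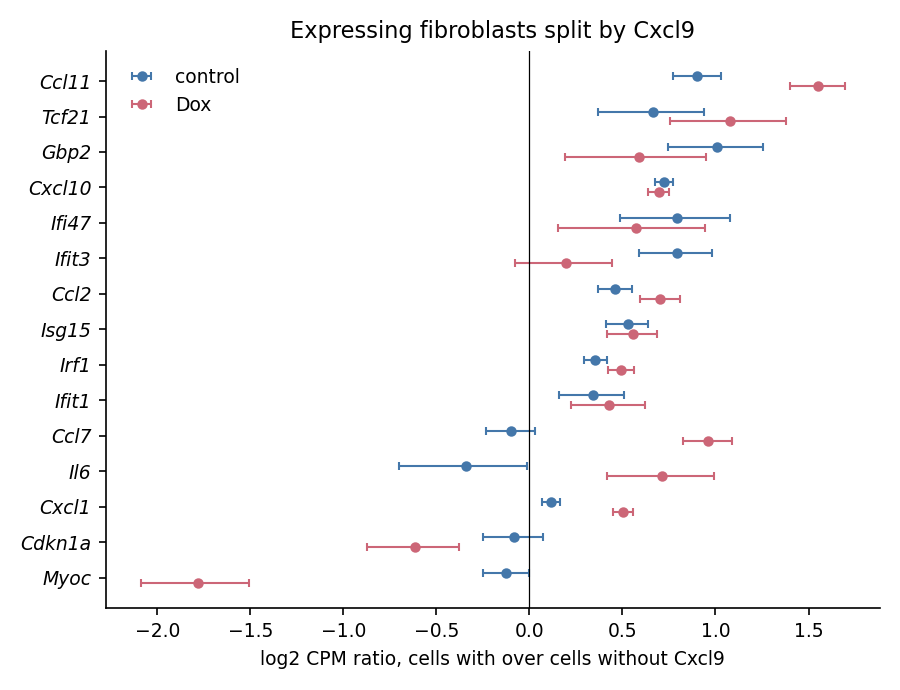
Log2 ratio of CPM in expressing fibroblasts with at least 1 Cxcl9 UMI over those without (x axis) for named genes (y axis), in control (blue) and Dox (red), with 95% intervals of counting error. Ccl11 was at 0.90 in control and 1.55 in Dox and Gbp2 at 1.01 in control and 0.59 in Dox, whereas Ccl7 was at -0.10 in control and 0.96 in Dox.

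RNA of other cells was also present in the fibroblasts. The 13 macrophage markers summed to 439 against 351 CPM in control and 260.1 against 167 CPM in Dox, none of them at 0 in the expressing cells, with Lyz2 the most abundant at 181 and 99.1 CPM. The 8 MHC class II genes, led by Cd74, summed to 966 against 594 CPM in control and 233 against 269 CPM in Dox. The 13 markers of T cells and natural killer cells summed to 47.4 against 57.0 CPM in control and 17.4 against 44.1 CPM in Dox. Over the groups of chemokine UMIs described above, the macrophage sum did not follow the chemokines. It was at 335 CPM with 0 UMIs, 737 CPM with 2, 299 CPM with 10 to 29 and 512 CPM with 30 or more in control. In Dox it was at 151 CPM with 0, 442 CPM with 4 to 9 and 105 CPM with 30 or more. Summed over all expressing cells, macrophage RNA was higher in both libraries, T cell RNA was lower and class II RNA was higher in control alone. Without the cells that held at least 2 UMIs of Tyrobp, Lyz2, Cd74 or C1q genes, Cd74 was at 19.9 against 19.6 CPM in control and 13.4 against 15.2 CPM in Dox and H2-Aa at 12.8 against 13.0 CPM in control and 7.56 against 9.66 CPM in Dox. Cd74 is itself among the genes that chose the cells removed. The higher class II RNA of the expressing control cells was not seen without those cells.

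The 7 melanocyte markers summed to 2426 against 2428 CPM in control and 612 against 625 CPM in Dox, and the 7 RPE markers other than Rpe65 to 3023 against 3129 CPM in control and 4835 against 4781 CPM in Dox. The 8 endothelial markers, mostly Emcn, summed to 664 against 567 CPM in control and 700.0 against 583 CPM in Dox. The median doublet score was 0.241 against 0.219 in control and 0.197 against 0.174 in Dox. Without cells that held a UMI of Ptprc, Tyrobp, Cd3e, Nkg7 or Pecam1, the share of expressing fibroblasts was 17.4% in control and 18.6% in Dox. The log2 ratio of Ccl11 was then 1.59 and 1.61, that of Ccl2 1.29 and 1.37 and that of Ifit1 1.69 and 1.41.

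Immediate early and stress genes, which dissociation of tissue can raise, were also compared. Of 25 compared, 16 were above 0 in both libraries, 5 were below 0 in both and none passed 1.5-fold, with medians of 0.11 in control and 0.18 in Dox. Over all genes, 25.5% were above 0 in both libraries and 53.1% below 0 in both. By 1.5-fold, 1.28% of all genes were higher and 0.689% lower, so that the count of 0 at that limit is near the background. The 16 of 25 genes above 0 were a larger share than the 25.5% of all genes. The sum of the 25 genes was 73830 against 67991 CPM in control (log2 ratio 0.119, 0.116 to 0.122). In Dox it was 81325 against 69743 CPM (0.222, 0.218 to 0.225). The stress genes were thus slightly higher as a sum. Their part in the chemokine RNA was not tested.

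Between conditions, few genes of the expressing fibroblasts differed by 2-fold, and the lower ones were led by melanocyte and MHC class II genes. Of 2972 genes, 2 were at least 2-fold higher in Dox (0.0673%) and 19 at least 2-fold lower (0.639%). The count of lower genes was smaller without the cells of highest doublet score, as given in the last section. At 1.5-fold, 13 were higher (0.437%) and 30 lower (1.01%). In the other fibroblasts 2 and 21 of 2988 genes were at least 2-fold higher and lower (0.0669% and 0.703%). Here too a gene could reach 50 CPM in a single library. In the expressing cells both of the genes at least 2-fold higher in Dox were under it in control, and 12 of the 19 lower ones were under it in Dox, so that these genes had to differ to be compared. The higher genes were A2m, the protease inhibitor alpha-2-macroglobulin, at 37.9 CPM for control and 99.5 CPM for Dox (log2 ratio 1.39, 1.23 to 1.55), and Serpina3n, an inhibitor of serine proteases, at 49.0 CPM for control and 125 CPM for Dox (1.35, 1.21 to 1.499). In the other fibroblasts the log2 ratio of A2m was 1.42 and that of Serpina3n 1.14. The RPE markers summed to 3023 CPM for control and 4835 CPM for Dox in the expressing cells, and their part in these rises and in the next 8 was not tested.

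The next 8 rises were smaller. Cltrn, an amino acid transport partner, Pappa2, a protease of growth factor binding proteins, and Rspo3, an enhancer of Wnt signalling, had log2 ratios of 0.82, 0.69 and 0.67, beside 0.65, 0.46 and 0.37 in the other fibroblasts. Ttr, which encodes transthyretin, was at 2129 CPM for control and 3534 CPM for Dox. Rdh5, a retinol dehydrogenase gene of the RPE, Krt18, Cox8b and Atp1b1 had log2 ratios of 0.77, 0.74, 0.77 and 0.63.

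Of the 10 largest falls in Dox, all but Il1b were genes of pigment cells or of antigen presentation. Pmel, a melanosome protein, was at 565 CPM for control and 116 CPM for Dox in the expressing cells, with log2 ratios of -2.28 there and -2.23 in the other fibroblasts. The melanocyte genes Tyrp1, Mlana, Mlph and Cited1 had log2 ratios of -2.16, -2.06, -2.04 and -2.01. Pmel cells numbered 3307 in the control and 744 in the Dox library, and their part was not tested. The class II genes H2-Eb1, H2-Aa and H2-Ab1 had log2 ratios of -2.64, -2.29 and -2.24. A single cell held 14.9%, 12.3% and 12.9% of their UMIs among the expressing cells of control and 16%, 21.2% and 15.9% in Dox. Without the cells that held macrophage RNA, H2-Eb1 was at 7.62 CPM for control and 5.55 CPM for Dox, H2-Aa at 12.8 CPM for control and 7.56 CPM for Dox and H2-Ab1 at 9.15 CPM for control and 6.03 CPM for Dox. The 3 genes thus differed by less than 2-fold without those cells.

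Cd74, the invariant chain of MHC class II, was at 497 CPM for control and 103 CPM for Dox, with log2 ratios of -2.27 in the expressing and -1.18 in the other fibroblasts. A single cell held 10.9% of its UMIs in control and 18.1% in Dox, and without the cells of highest doublet score its log2 ratio was 0.47. The direction for Cd74 thus turned on those cells. Il1b, a cytokine of macrophages and neutrophils, was at 54.2 CPM for control and 13.2 CPM for Dox, and a single cell held 31.0% of its UMIs in Dox.

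**Figure D5:**
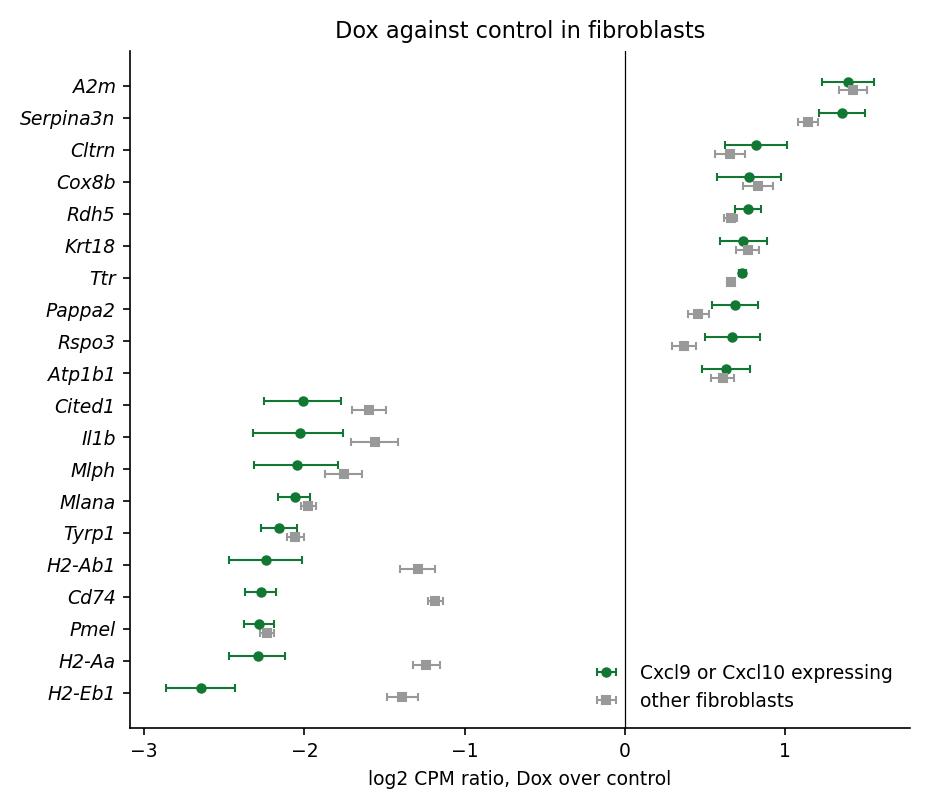
Log2 ratio of CPM in Dox over control (x axis) for the 10 largest rises and 10 largest falls (y axis) in Cxcl9 or Cxcl10 expressing fibroblasts (green circles) and for the same genes in the other fibroblasts (grey squares), with 95% intervals of counting error. A2m, at 1.39 and 1.42, and Pmel, at -2.28 and -2.23, were alike in both groups, while Cd74 was at -2.27 and -1.18.

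Interferon genes were also compared between conditions in the expressing cells. None of 12 type I interferon effectors, 6 interferon gamma targets, 9 signalling genes and 14 MHC class I genes passed 1.5-fold, with medians of 0.11, -0.07, 0.02 and -0.09. Over all genes compared, 0.437% were higher and 1.01% lower by 1.5-fold, so that these counts are near the background. Ifit1 was at 253 CPM for control and 284 CPM for Dox (log2 ratio 0.17, 0.09 to 0.24) in the expressing cells, with a log2 ratio of 0.42 in the others. Ccl2 was at 869 CPM for control and 812 CPM for Dox (-0.10, -0.14 to -0.05), and Ccl11 at 342 CPM for control and 281 CPM for Dox (-0.28, -0.35 to -0.21). Of 11 chemokine and cytokine genes, 2 were at least 1.5-fold lower in Dox, Il1b and Ccl4, and none was higher. Ccl4 was at 111 CPM for control and 63.2 CPM for Dox (log2 ratio -0.81, -0.95 to -0.67), and without the cells that held macrophage RNA at 16.1 CPM for control and 6.97 CPM for Dox. Of 17 NF-κB targets, 1 was at least 1.5-fold higher, the pattern recognition gene Ptx3, at 43.1 CPM for control and 65.5 CPM for Dox, which was compared through its level in Dox alone.

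Doxorubicin damages DNA, and targets of p53 were read in the same cells. Of 6 p53 targets compared, out of 24 in the files, none was at least 1.5-fold higher or lower in Dox, with a median of -0.09. Beside 0.437% higher and 1.01% lower over all genes, a count of 0 in so few genes is near the background. Cdkn1a, which encodes the cell cycle inhibitor p21, was at 384 CPM for control and 349 CPM for Dox (log2 ratio -0.14, -0.20 to -0.07), and Bax, which permeabilizes mitochondria, at 116 CPM for control and 113 CPM for Dox. Of 4 cell cycle genes and 30 matrix genes, none was at least 1.5-fold higher or lower, with medians of -0.03 and 0.05, and these counts too are near the background.

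The receptor of both chemokines was found in lymphoid cells. Cxcr3 was at 103 CPM for control and 82.2 CPM for Dox in the cells with Cd3 genes or Nkg7, and at 0.332 CPM for control and 0.103 CPM for Dox in the expressing fibroblasts. Ifng, the interferon gamma gene, was at 96.7 CPM for control and 73.4 CPM for Dox in the same lymphoid cells and at 0.747 CPM for control and 0.103 CPM for Dox in the expressing fibroblasts. Ccr2, the receptor of CCL2 and CCL7, was at 97.4 CPM for control and 115 CPM for Dox in C1q cells and at 96.0 CPM for control and 104 CPM for Dox in the lymphoid cells. The same C1q cells held Ccl2 at 1134 CPM for control and 934 CPM for Dox, beside 869 CPM for control and 812 CPM for Dox in the expressing fibroblasts. Cxcl10 was at 122 CPM for control and 30.7 CPM for Dox in the lymphoid cells. Ccr2 and Ccl2 were thus both read in C1q cells, while Cxcr3 was low in the expressing fibroblasts.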

How the data were processed

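Single-cell RNA-seq (10x 5′) libraries were made from the RPE layer, 1 per condition. The authors deposited raw UMI counts per gene and cell, made with Cell Ranger (version 4.0.0 per the file headers) on mm10. Cells with over 500 UMIs, 200 to 6000 genes and a mitochondrial share under 0.2 were kept. Counts were summed over cells of a group and divided by the group's UMIs (CPM), with exact Poisson intervals for CPM, Clopper-Pearson intervals for shares and exact conditional binomial intervals for ratios, all covering counting error only. A count of 0.5 was added for log2 ratios. Genes with at least 50 CPM in a group and 50 UMIs over both groups were compared. With 1 library per condition and cells chosen by their own counts, no test was run.

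The genes named are the markers given for the cells, the genes of the selection, the 20 highest and 12 lowest genes by the log2 ratio nearer to 0 of the 2 libraries, the 10 largest rises and falls in Dox, and the top members of each list. Further list members were named after their values were seen. Some results are not reported here. Members and lists were chosen with earlier results of these data known. Other cells were classed by at least 3 UMIs of Pmel or of Cd3d, Cd3e, Cd3g and Nkg7 together, or 5 of Pecam1, Cdh5 and Cldn5 (endothelial) or of Myh11, Acta2 and Tagln (smooth muscle). Doublets were scored with Scrublet (scanpy 1.11.5) and kept, with removal of the highest scores as an alternative. Its own thresholds called 15.8% of control and 12.8% of Dox cells. Intervals came from scipy 1.17.1 under Python 3.11.15, with pandas 2.3.3 and numpy 2.4.6, and the ratio code was tested on simulated data. Alternatives changed the chemokine threshold, cell filters, depth, gene minimum and scaling.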

Additional observations from a re-analysis of the deposited data

Results flagged for a closer look

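Of the named genes, 5 were flagged because they differed in opposite directions between expressing and other fibroblasts in the 2 libraries. Ifi27, described above, also changed sign and is not among these 5. Cd74, the invariant chain of MHC class II, had a log2 ratio of 0.731 in control and -0.359 in Dox. Igfbp5, a binding protein of insulin-like growth factor, had 0.0205 in control and -0.0775 in Dox, and Apod, an apolipoprotein of fibroblasts, 0.0295 in control and -0.0665 in Dox. The immediate early genes Fos and Ier2 had -0.0178 in control and 0.0829 in Dox and -0.0262 in control and 0.0529 in Dox. Without the cells that held macrophage RNA, Cd74 was at 19.9 against 19.6 CPM in control and 13.4 against 15.2 CPM in Dox. The differences between the libraries were not tested, and all the ratios other than those of Cd74 are within 0.1 of 0.

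Cells with Dcn that were left out because they held at least 10 UMIs of Rpe65 also held the chemokines. At least 3 chemokine UMIs were found in 33 of 190 such cells in control (17.4%, median 13703.5 UMIs per cell) and in 18 of 140 in Dox (12.9%, median 11463.5 UMIs). The difference was not tested.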

How the results depend on the processing

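The share of expressing fibroblasts followed the chemokine threshold and depth. It was 9.68% in control and 11.2% in Dox at 10 UMIs or more, where the intervals no longer overlapped but depth was not made equal. It was 12.3% and 13.2% with cells thinned to 2000 UMIs, and 17.0% in control without the highest doublet scores. Against other fibroblasts, the count of genes at least 2-fold higher went from 8 to 18 at 10 UMIs or more and 37 at 1.5-fold. With genes taken from 20 UMIs on and no CPM minimum it was 37. The count of lower genes went from 8 to 16 at 10 UMIs or more, 16 at 500 CPM or more and 20 at 1.5-fold. With 20 UMIs and no CPM minimum that count was 70. With the same 2 changes, chemokine genes at least 1.5-fold higher went from 7 to 12. Type I interferon effectors went from 4 to 9 and interferon gamma targets from 3 to 11, while the count over all genes went from 37 to 234. Between conditions, genes at least 2-fold higher in Dox went from 2 to 76 with 20 UMIs and no CPM minimum and 13 at 1.5-fold. Lower genes went from 19 to 11 without the highest doublet scores, 392 with 20 UMIs and no CPM minimum and 30 at 1.5-fold. Of the named genes followed through the alternatives, Ccl4 in Dox turned to -0.12 without the cells that held macrophage RNA, and Cd74 between conditions to 0.47 without the highest doublet scores. The cause was not tested. Ccl11 kept its direction at 1.58 to 2.07 in control and 1.54 to 1.97 in Dox, Ifit1 at 1.64 to 2.04 and 1.39 to 1.75, Ccl2 at 1.20 to 1.54 and 1.35 to 1.74, and Myoc at -1.85 to -1.36 and -2.50 to -1.73. The 1.5-fold limit and the removal of cells with macrophage RNA were chosen after seeing the data. No paired analysis was possible because each condition has 1 library, and with 1 library the spread between animals is unknown.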
